A study of Mus musculus with 56 samples.

Results

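Heat shock and chaperone genes, 10 in number, were followed in single cells (SCs) of primary mouse pituitary culture. The 10 were chosen by name, with earlier results of these data known, and all 10 were among the 47069 gene rows of the table. They comprise the stress-inducible Hsp70 pair *Hspa1a* and *Hspa1b*, the constitutive Hsp70 *Hspa8*, the Hsp90 pair *Hsp90aa1* and *Hsp90ab1*, the co-chaperone *Dnajb1*, the mitochondrial pair *Hspe1* and *Hspd1*, the Hsp110 protein *Hsph1* and the small heat shock protein *Hspb1*. The cells came from untreated cultures of female C57BL/6 mice aged 10 to 12 weeks and randomly cycling, with 5 pituitaries per sample, kept for 4 days in medium with serum after enzymatic dissociation. They were then trypsinized, put into RNA-Best, which keeps intact cells and RNA stable, at 400000 cells per ml, and separated on a Fluidigm C1 circuit, where lysis takes place in 1 chamber per cell. SMART-Seq v4 was used to amplify full-length cDNA. The labels named no separate animals or cultures and no other treatment, so the cells were 1 sample, no test was made and all spreads are between cells.

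Of 56 wells, the 46 with at least 100000 gene counts were used. Their gene counts ran from 111195 to 12563300 (median 1192620). ERCC spike-ins, synthetic RNAs added to each chamber, made up 0.144% to 66.1% (median 6.08%) of all counts. Transcripts of 7 pituitary hormone genes, here called the hormone load, took 0.923% to 81.0% of gene counts, with a median of 29.6%. The label of the tissue could be checked on these genes: *Prl*, *Gh* and *Pomc* were detected in 46 of 46 cells. The gene counts of wells C10 and C11 were nearly identical while their spike-ins were not, so results are also given without C11. Used wells fell in plate columns 1 to 3 and 7 to 9 (29 wells) and in columns 4 to 6 and 10 to 12 (17 wells), and these sets, noticed in earlier results, differed in depth and hormone load as described below.

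Chaperones bind unfolded or partly folded proteins and help them fold. Under heat or other stress the transcription factor HSF1 binds heat shock elements, which are short GAA units in alternating orientation, and raises the inducible members, while the constitutive members serve folding in unstressed cells. Secretory cells such as those of the pituitary make large amounts of protein, and dissociation of tissue into single cells is a known trigger of heat shock transcripts.

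The elements by which this family is known can be seen in the promoters. RefSeq promoter windows on GRCm38.p6, from 250 bases before to 50 bases after the gene start, were matched for 7 of the 10 members, with 10 windows in all. *Hspa8*, *Hsp90aa1* and *Hsp90ab1* had no entry. The letters searched were a pair of facing units, GAANNTTC or TTCNNGAA, each of which reads the same on both strands. The stretches below show the pairs in the Hsp70 genes, the mitochondrial genes, *Hspb1* and *Hsph1*, with the pairs in capitals and each stretch written 5′ to 3′ on the strand of its gene.
Hspa1a: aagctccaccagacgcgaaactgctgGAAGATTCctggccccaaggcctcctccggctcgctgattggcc
Hspa1b: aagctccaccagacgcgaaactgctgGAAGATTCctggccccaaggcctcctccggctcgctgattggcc
Hspe1: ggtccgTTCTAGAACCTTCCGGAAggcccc
Hspd1: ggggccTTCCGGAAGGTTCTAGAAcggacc
Hspb1: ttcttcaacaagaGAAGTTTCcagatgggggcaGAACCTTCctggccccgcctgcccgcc
Hsph1: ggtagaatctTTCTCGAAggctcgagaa
Hsph1 after start: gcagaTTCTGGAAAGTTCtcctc

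The *Hspa1a* stretch lies at chr17:34972217-34972286 and the *Hspa1b* stretch at chr17:34959299-34959368, both on the minus strand and outside any exon of GENCODE M21. They were identical at 70 of 70 bases, and 247 of the 250 bases before the start were identical in the 2 genes. In each the pair began 104 bases before the start (position -104). The *Hspe1* and *Hspd1* stretches are the same bases of chr1:55088053-55088082 read on opposite strands. They lie before the start of *Hspe1* and before the second of the 2 RefSeq starts of *Hspd1*, and 1 GENCODE transcript of *Hspd1* carries it in a UTR exon. The *Hspb1* stretch is at chr5:135887789-135887848 on the plus strand, with pairs at -117 and -97, and touches no exon. The *Hsph1* stretches are at chr5:149636352-149636379 and chr5:149636283-149636305 on the minus strand. They are placed by its second start, and each overlaps a 5′ exon of the gene in GENCODE.

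A pair occurred in 6 of the 7 members with a window and in 15.1% of all 32851 promoter windows of the same length. A run of 3 units, GAANNTTCNNGAA or TTCNNGAANNTTC, a search added after the pairs had been seen, occurred in 3 members, *Hspe1*, *Hspd1* and *Hsph1*, and in 0.603% of all windows. A member was counted if any of its windows held the letters, whereas the shares of all promoters are by window. Nor are the members separate sites, since the runs of *Hspe1* and *Hspd1* are the same bases and the *Hspa1a* and *Hspa1b* stretches are identical. Every run of 3 holds overlapping pairs. Neither set of letters was found in the 2 windows of *Dnajb1*. These counts describe letters in a window and not binding.

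**Figure D1:**
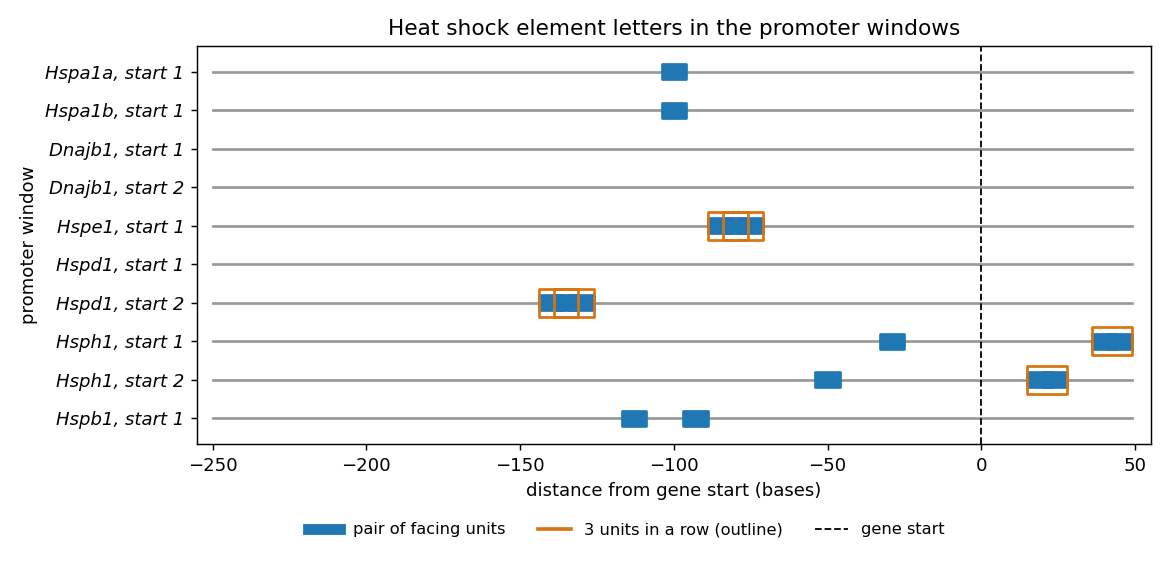
Position of heat shock element letters in the 10 RefSeq promoter windows of 7 members. The horizontal axis is the distance from the gene start in bases, filled bars are pairs of facing units and outlines are runs of 3 units. The single pair of *Hspa1a* and of *Hspa1b* sits at the same distance, -104, and the windows of *Dnajb1* are empty.

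Counts were scaled to a total of 1000000 per cell over gene rows without spike-ins (CPM), and a gene was called detected in a cell at 1 CPM or more. This limit takes more than 1 read in wells above 1000000 gene counts and less than 1 read in shallower wells. Counts above 0 were therefore in more cells for some members: 42 for *Hspa1a*, 42 for *Hspa1b*, 38 for *Dnajb1*, 41 for *Hsph1* and 30 for *Hspb1*. Shares of cells carry exact Clopper-Pearson 95% intervals, which cover counting error only. The 10 members together took 282 to 59761 CPM, with a median of 2503 CPM per cell. All 10 were detected in 16 cells, the median cell had 8.5 of them, and no cell had fewer than 4. Of the members, 4, *Hspa8*, *Hsp90aa1*, *Hsp90ab1* and *Hspd1*, were detected in 46 of 46 cells (interval 92.3% to 100%), and *Hspe1* in 44. Of all 47069 gene rows, 708 were detected in every cell, 3.59% in at least 90% of cells and 12.3% in at least 50%.

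The Hsp90 pair, which folds kinases and steroid receptors, was present throughout. *Hsp90ab1*, the constitutive form, ranged from 29.9 CPM in well A1 through a median of 623 CPM to 5798 CPM in C7, with 3334 CPM in B12 as the next highest. *Hsp90aa1*, the form that stress raises, ranged from 11.7 CPM, also in A1, through 331 CPM to 3863 CPM in D2, with B3 next at 1678 CPM. Their SDs over cells on the log2(CPM + 1) scale were 1.57 and 1.79. These were the lowest of the 10, below the lower quartile of 2.02 for the 7959 genes with a mean of at least 10 CPM, a set that holds all 10 members. That set was not matched to the members in level. The median of its median CPM was 3.84, and its median gene was detected in 28 cells.

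*Hspa8*, the constitutive Hsp70 that also strips clathrin coats from vesicles, ranged from 22.6 CPM in H7 through a median of 514 CPM to 59269 CPM in A3. The second highest cell, C7, was at 9903 CPM. A3 alone, a well with 183945 gene counts and 63.0% ERCC, held 56.0% of the CPM of *Hspa8* summed over the 46 cells, from 10902 reads. No other member was high in A3: *Hsph1* and *Hspb1* were at 0 and *Hspe1* was at 2.72 CPM. The SD of *Hspa8* was 2.19, near the median of 2.29 over the 7959 genes. In the 25 wells with at least 1000000 gene counts the median of *Hspa8* was 923 CPM.

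The inducible Hsp70 genes behaved differently from cell to cell. *Hspa1a* reached 1 CPM in 36 of 46 cells (78.3%, interval 63.6% to 89.1%). It went from 0 CPM through a median of 11.9 CPM to 3353 CPM in D2. The next highest cell, E1, was at 537 CPM. *Hspa1b* was detected in 35 cells (76.1%, interval 61.2% to 87.4%), at a median level of 8.42 CPM, and was again highest in D2 at 1393 CPM and second in E1 at 539 CPM. These medians were lower in deeper wells: in the 25 wells with at least 1000000 gene counts they were 1.79 CPM for *Hspa1a* and 2.96 CPM for *Hspa1b*. D2 held 61.6% of the summed CPM of *Hspa1a*. The sum of both genes reached 1 CPM in 39 cells, 100 CPM in 12 and 1000 CPM in 2, limits that were chosen after the values were seen. Since 66.3% of the 50-base windows of *Hspa1a* transcripts and 62.3% of those of *Hspa1b* also occur in another gene, mostly in each other, reads cannot be assigned surely to either, and their sum is the firmer value.

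*Dnajb1*, the J-domain partner that activates Hsp70, was detected in 31 cells (67.4%, interval 52.0% to 80.5%), from 0 CPM through a median of 5.01 CPM to 839 CPM in B12, with H11 next at 395 CPM. *Hsph1*, an Hsp110 protein that exchanges nucleotide on Hsp70, was detected in 37 cells (80.4%, interval 66.1% to 90.6%). Its values went from 0 CPM through a median of 37.9 CPM to 476 CPM in E1, with B12 second at 366 CPM. These are the members whose reads are least shared, since 0.412% of the windows of *Dnajb1* and 0% of those of *Hsph1* occur in another gene. *Hspb1*, which encodes the small heat shock protein Hsp25, was detected in 18 cells (39.1%, interval 25.1% to 54.6%), at a median level of 0.455 CPM, and was highest in E1 at 298 CPM and second in G1 at 80.7 CPM. Of its windows, 50.1% occur in another gene. With the rows of its copies *Hsp25-ps1* and *Gm9817* added, its median was 2.29 CPM, above the detection limit of 1 CPM. Its level and its count of cells therefore depend on how shared reads were assigned. In the 25 deepest wells the medians were 1.16 CPM for *Dnajb1*, 25.8 CPM for *Hsph1* and 0.360 CPM for *Hspb1*. The SDs of *Hspa1a*, *Hspa1b*, *Dnajb1* and *Hsph1*, at 2.79, 2.83, 2.88 and 2.59, were above the upper quartile of 2.55 for the 7959 genes. *Hspb1* was at 2.29. Median counts of the first 4 were 6.9, 4.3, 2.5 and 21 reads, and the part of depth and plate position in their SDs was not tested.

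*Hspd1* and *Hspe1* encode the subunits of the mitochondrial chaperonin and its lid and lie head to head, with overlapping 5′ ends, where reads cannot be assigned surely because the strand setting is not known. Of their windows, 42.1% for *Hspd1* and 22.8% for *Hspe1* also occur in another gene. *Hspd1* ranged from 1.47 CPM in C9 through a median of 20.7 CPM to 878 CPM in E7, a well at 111195 gene counts, with H2 second at 430 CPM. In the 25 wells with at least 1000000 gene counts its median was 95.3 CPM. *Hspe1* ranged from 0 CPM in A10 through 83.7 CPM to 905 CPM in D2, with C7 at 865 CPM. The cells highest in one of the genes were not the highest in the other, and D2 had 14.9 CPM of *Hspd1*.

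**Figure D2:**
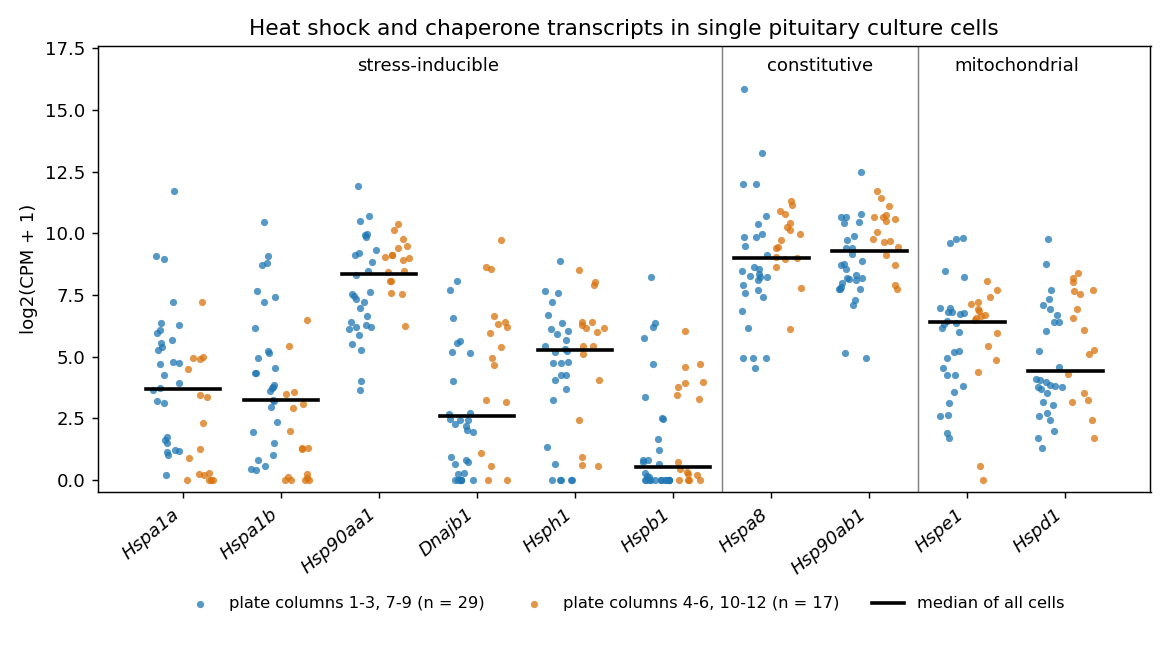
Level of each member in each of 46 cells, as log2(CPM + 1) on the vertical axis, grouped by role; points are cells, colours are the 2 sets of plate columns and black lines are medians over all cells. *Hsp90ab1*, *Hspa8* and *Hsp90aa1* sit highest, at median CPM of 623, 514 and 331, while the other inducible members include cells at 0.

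Levels of different genes were compared per length, as TPM from GENCODE M21 exon lengths. By median TPM the order was *Hsp90ab1* (318), *Hspa8* (217), *Hsp90aa1* (141), *Hspe1* (89.1), *Hspd1* (12.7), *Hsph1* (7.96), *Hspa1a* (6.17), *Hspa1b* (4.86), *Dnajb1* (2.32) and *Hspb1* (0.740). The place of *Hspd1* above *Hsph1* rests on the lengths used, 2642 and 7266 bases, since their median CPM were 20.7 and 37.9. The median difference of neighbours was smaller than its SD over cells throughout, but the higher of the 2 was above in most cells at the top of the order. *Hsp90ab1* was above *Hspa8* in 34 of 46 cells (interval 58.9% to 85.7%), *Hspa8* above *Hsp90aa1* in 32 (54.2% to 82.3%), *Hspe1* above *Hspd1* in 35 (61.2% to 87.4%) and *Hspd1* above *Hsph1* in 31 (52.0% to 80.5%). *Hsp90aa1* was above *Hspe1* in 30 (49.8% to 78.6%), and from *Hsph1* down the intervals all held 50%. For *Hsph1* over *Hspa1a* the median difference within a cell was of the other sign, at -0.15 on the log2(TPM + 1) scale (SD 2.65), with *Hsph1* above in 21 of 46 cells.

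The inducible and constitutive partner were next set against each other within each cell. *Hspa1a* plus *Hspa1b* exceeded *Hspa8* in TPM in 6 of 46 cells (13.0%, interval 4.94% to 26.3%), namely D2, E3, E9, G7, H7 and H9. The median log2 ratio was -3.24 (SD 3.72), from -10.4 in A3 to 4.70 in H7. It was -2.61 within plate columns 1 to 3 and 7 to 9, -5.30 within the others and -4.72 in wells with at least 1000000 gene counts. In D2 the inducible sum was 2774 TPM against 118 TPM of *Hspa8*. In H7 it was 193 TPM against 6.47 TPM, and H7 was the cell with the lowest *Hspa8*. Across cells the 2 levels had a Spearman rho of -0.13. These 6 were all among the wells of columns 1 to 3 and 7 to 9. Of the left-out wells, all in the other columns, B5 and E6 also had the inducible sum above *Hspa8*. The levels were 8703 against 42.2 TPM in B5 and 728 against 233 TPM in E6. Over all 56 wells the share was 14.3%.

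*Hsp90aa1* exceeded *Hsp90ab1* in TPM also in 6 of 46 cells, B3, D2, E3, H2, H3 and H4. The median log2 ratio was -1.90 (SD 1.67), from -4.03 in C7 to 4.39 in H3, where *Hsp90aa1* was at 355 TPM and *Hsp90ab1* at 16.1 TPM. Unlike the Hsp70 genes, these 2 levels went up and down together over the pooled cells, with a rho of 0.58. In CPM it was 0.52, or 0.42 with hormone counts left out, and 0.52 and 0.40 within the sets of columns. *Hspa1a* with *Hspa8* had 0.03 and -0.51 within the sets, and *Hspa1b* with *Hspa8* 0.17 and -0.31. D2 and E3 had the inducible partner above in both families. *Hspe1* exceeded *Hspd1* in 35 of 46 cells (76.1%, interval 61.2% to 87.4%). The median log2 ratio was 1.03 (SD 2.80), from -7.30 in H4 to 7.35 in C7, a pair added after values were seen. Without C11 the shares were 13.3%, 13.3% and 75.6%.

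**Figure D3:**
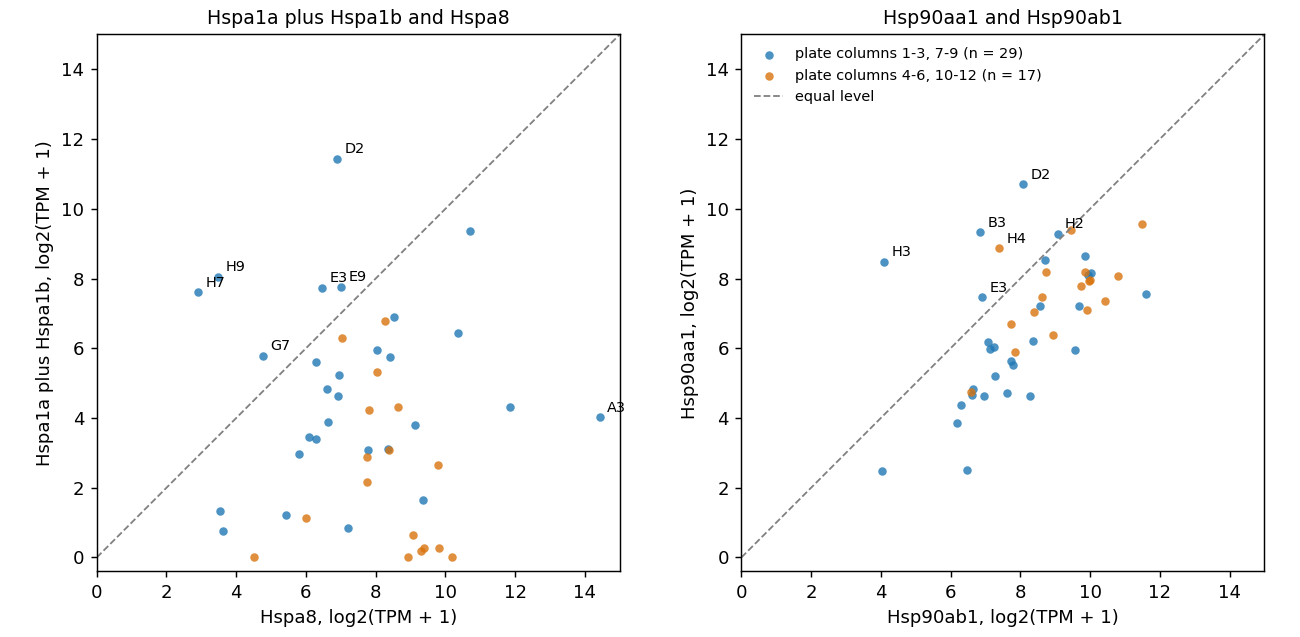
Inducible (vertical) against constitutive (horizontal) Hsp70 and Hsp90 transcripts per cell, as log2(TPM + 1) on both axes; points are 46 cells coloured by plate columns and the dashed line marks equal levels. Named cells above the line are the 6 in each panel with the inducible form higher, and A3 is named for its *Hspa8*.

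Reads of gene copies touch these ratios, since 39.4% of the windows of *Hspa8*, 47.5% of those of *Hsp90aa1* and 3.44% of those of *Hsp90ab1* occur in another gene. Rows of unnamed copies that share windows with *Hspa8* also carried reads, among them *Gm8355* with a median of 64.6 CPM, and those of *Hsp90aa1* included *Gm12346* with 69.4 CPM and *Gm5844* with 66.8 CPM. Non-whole counts were found in 93.5% of the cells with *Hspa8* reads and 89.1% of those with *Hsp90aa1* reads. When the copies were added, the median of *Hspa8* was 633 CPM and that of *Hsp90aa1* 474 CPM. The share of cells with the inducible Hsp70 sum above *Hspa8* was again 13.0%, and that with *Hsp90aa1* above *Hsp90ab1* was 17.4%.

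Single wells carried different sets of members. D2 was the highest cell for *Hspa1a*, *Hspa1b*, *Hsp90aa1* and *Hspe1*, while *Dnajb1* was at 0 CPM, *Hspb1* at 0.551 CPM and *Hspa8* at 297 CPM. E1 was highest for *Hsph1* and *Hspb1* and second for *Hspa1a* and *Hspa1b*, with 208 CPM of *Dnajb1* and 4084 CPM of *Hspa8*. In E1, then, inducible and constitutive members were high together, and in D2 they were not. B12 was highest for *Dnajb1* and second for *Hsph1* and *Hsp90ab1*, with 31.1 CPM of *Hspa1a*. A1, lowest for both Hsp90 genes, still had 201 CPM of *Hsph1*, the fifth highest value. H4, a cell with 8855 CPM of endothelial markers, had 335 CPM of *Hspd1*, the third highest value, with *Dnajb1* at 0 CPM and *Hspa1a* at 0.206 CPM. The like wells C10 and C11 had 520 and 504 CPM of *Hspa8* and 1737 and 1632 CPM of *Hsp90ab1*, but 208 and 42.1 CPM of *Hspe1*. All of *Hspa1a*, *Hspa1b*, *Dnajb1* and *Hsph1* were detected in 21 cells, and none of them reached 1 CPM in 3, C1, F4 and H4. C1, with 6845390 gene counts, still held 6.83, 2.33, 4 and 4 reads of these genes, in that order.

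Co-variation over the 46 cells was described by Spearman rho of CPM. All values share the depth and the CPM total of each cell. The 45 pairs of members had a median rho of 0.23 (SD 0.20 over pairs, range -0.23 to 0.73), with 16 pairs above 0.3 and 5 below 0. For the 36 pairs of the 9 members with a mean of at least 10 CPM and detection in at least 50% of the cells, the median was 0.17 and 33.3% were above 0.3. Over the 12799270 pairs of all genes within these limits the median was 0.15 and 22.1% were above 0.3.

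The highest value, 0.73, belonged to *Hspa1a* and *Hspa1b*, which share reads. It was 0.59 within plate columns 1 to 3 and 7 to 9 and 0.79 within the others. The next values all involved *Hsp90ab1*, with *Hspe1* (0.54), *Hsp90aa1* (0.52), *Hspa8* (0.52) and *Hsph1* (0.51). Within the 2 sets of columns these were 0.57 and 0.44 for *Hspe1*, 0.52 and 0.40 for *Hsp90aa1*, 0.45 and 0.17 for *Hspa8*, and 0.38 and 0.67 for *Hsph1*. The inducible Hsp70 genes had low pooled values with most other members, and several values were higher within a set of columns. *Hspa1a* had a rho of 0.04 with *Hsp90aa1* (0.17 and 0.26 within the sets), 0.00 with *Dnajb1* (0.04 and 0.24), 0.26 with *Hsph1* (0.34 and 0.45) and 0.32 with *Hspb1* (0.26 and 0.79). *Hspa1b* had 0.20 with *Hsp90aa1* (0.36 and 0.53), -0.06 with *Dnajb1* (-0.17 and 0.63) and 0.21 with *Hspb1* (0.15 and 0.79). The value of *Hspa1a* with *Hspa8*, -0.23, was the lowest of the 45, at 0.03 in one set of columns and -0.51 in the other. *Hspe1* and *Hspd1* had a rho of 0.27 (0.31 and 0.12 within the sets).

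**Figure D4:**
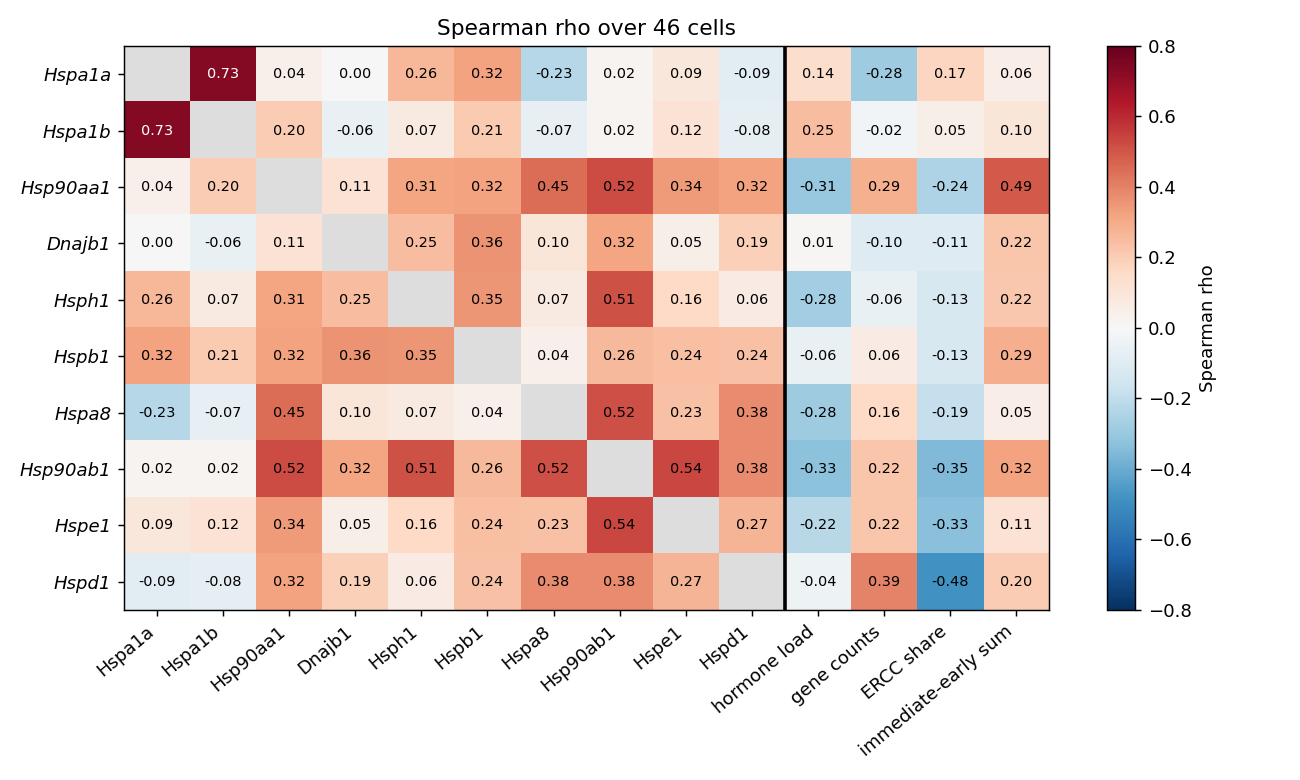
Spearman rho over 46 cells between the members, and between each member (rows) and hormone load, gene counts, ERCC share and the summed CPM of immediate-early genes (last 4 columns). Colour and printed value give rho; the highest value is *Hspa1a* with *Hspa1b* at 0.73 and the lowest *Hspd1* with ERCC share at -0.48.

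The genes most like the inducible sum, the CPM of *Hspa1a*, *Hspa1b*, *Dnajb1* and *Hsph1*, were sought among 5051 other genes with a mean of at least 10 CPM and detection in at least 50% of the cells. They were *Pde4dip* (rho 0.61), *Rtn1* (0.58), *Gm5537* (0.56), *Rnf6* (0.55) and *Psmb5* (0.55), over 46 cells. The median over the 5051 genes was 0.13 and the 99th percentile 0.45.

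The inducible sum was 0.784 to 4937 CPM with a median of 135 CPM, and the constitutive sum, *Hspa8* plus *Hsp90ab1*, 59.9 to 59554 CPM with a median of 1505 CPM. Neither went up with hormone load. The rho of hormone load was -0.21 with the inducible and -0.33 with the constitutive sum. Because hormone transcripts fill part of the CPM total, the values were also computed with hormone counts left out of it, and were then -0.04 and -0.11. Within plate columns 1 to 3 and 7 to 9 the values were -0.38 and -0.08, and within the others -0.08 and -0.65, so that the sum with the stronger relation was not the same in the 2 sets. Pearson r on log2(CPM + 1) was -0.06 and -0.24. Among single members the values with hormone load lay between -0.33 for *Hsp90ab1* and 0.25 for *Hspa1b*. Of the genes in the inducible sum only *Hsph1* had a negative value (-0.28), while *Hspa1a* was at 0.14 and *Dnajb1* at 0.01.

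Depth and spike-in share moved with some members. *Hspd1* had a rho of 0.39 with gene counts (0.16 and 0.51 within the sets) and of -0.48 with ERCC share (-0.24 and -0.70). *Hsp90ab1* and *Hspe1* had -0.35 and -0.33 with ERCC share. *Hspa1a* was on the other side, with -0.28 against gene counts and 0.17 against ERCC share. For the inducible sum the rho was 0.16 with gene counts and -0.18 with ERCC share, and for the constitutive sum 0.23 and -0.26. The inducible sum did not have the sign of its genes with gene counts. These were at -0.28 (*Hspa1a*), -0.02 (*Hspa1b*), -0.10 (*Dnajb1*) and -0.06 (*Hsph1*). With ERCC share the same genes were at 0.17, 0.05, -0.11 and -0.13. Gene counts and ERCC share were themselves tied, with a rho of -0.76.

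**Figure D5:**
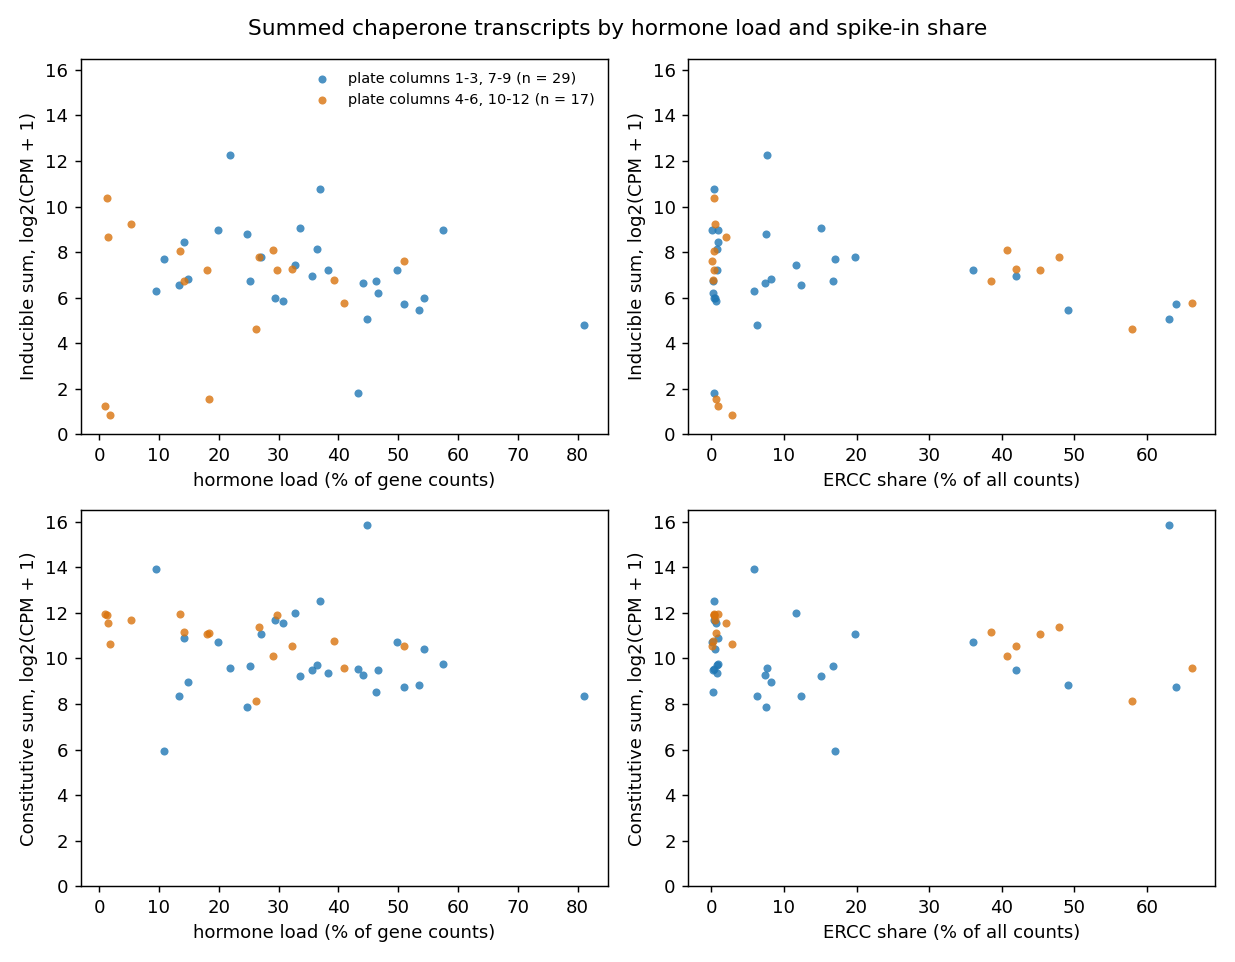
Inducible sum (top) and constitutive sum (bottom) in each of 46 cells, as log2(CPM + 1), against hormone load in percent of gene counts (left) and ERCC share in percent of all counts (right); colours are the 2 sets of plate columns. The points with hormone load have a rho of -0.21 and -0.33 and those with ERCC share -0.18 and -0.26.

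Immediate-early genes (IEGs), which cells switch on within minutes of a signal, were compared as the summed CPM of 8 genes, led by *Fos* (median 31.2 CPM, 41 cells) and *Ier2* (18.7 CPM, 38 cells). *Hsp90aa1* had a rho of 0.49 with it, which was 0.46 and 0.58 within the sets of columns, 0.46 with hormone counts left out, and 0.45 without the 2 cells farthest on the IEG axis. Pearson r was 0.47. The inducible sum had 0.33 (0.29 and 0.35 within the sets), and *Hspa1a* and *Hspa1b* had 0.06 and 0.10. For the inducible sum Pearson r was 0.22, or 0.15 without the 2 far cells, where rho was 0.27. The constitutive *Hsp90ab1* had a rho of 0.32 (0.23 and 0.41 within the sets), *Hspb1* 0.29 and the constitutive sum 0.23 (0.19 and 0.10). A positive value was thus not particular to the inducible members. D2, the cell with the most *Hspa1a*, was also the cell highest in *Jun*, at 1891 CPM, and in *Egr1*, at 1475 CPM. The other IEGs were highest elsewhere: *Atf3*, *Junb* and *Ier2* in B12, *Dusp1* in H4, *Fos* in H7 and *Fosb* in C11. In the IEG sum D2 (3677 CPM) was below B12 (8879 CPM) and H4 (3812 CPM). Those wells had 31.1 and 0.206 CPM of *Hspa1a*.

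Levels also differed by position on the plate. The median of *Hspa1a* was 24.9 CPM (range 0.155 to 3353) in columns 1 to 3 and 7 to 9 and 1.40 CPM (range 0 to 149) in columns 4 to 6 and 10 to 12, and that of *Hspa1b* 13.5 and 1.48 CPM. On medians of CPM + 1 this was 10.8-fold and 5.85-fold lower in the second set. *Dnajb1* went the other way, with 3.58 and 41.3 CPM, 9.23-fold higher in the second set. *Hspd1* was 4.24-fold, *Hsp90aa1* 2.88-fold, *Hsp90ab1* 2.83-fold, *Hspa8* 2.57-fold and *Hsph1* 2.35-fold higher there, while *Hspe1* and *Hspb1* were within 2-fold. The ranges of the sets overlapped for every member. In all, 6 members were over 2-fold higher and 2 over 2-fold lower, against a background of 39.9% higher and 10.9% lower among the 7959 genes. The used wells of the sets differed in much else: median gene counts were 1050010 and 3030870, ERCC share 7.41% and 2.06%, hormone load 35.6% and 18.4%, and summed folliculostellate markers 4.42 and 65.1 CPM. The last rests mainly on *Vim*, since the defining markers *Sox2* and *S100b* were detected in 0 (exact interval up to 7.71%, 6.52% by 3 counts of the total) and 1 of 46 cells. The directions for depth and ERCC share hold for used wells only, because all 10 wells under 100000 gene counts were in columns 4 to 6 and 10 to 12. Over all 27 wells of those columns the median gene counts were 234987 and the ERCC share 36.2%, both on the other side of the 29 wells. Over all wells, a comparison added after the data were seen, 4 members were over 2-fold higher and 2 lower, with *Hspa8* (327 and 594 CPM) and *Hspd1* (14.9 and 21.0 CPM) now within 2-fold and *Hspa1a* at 24.9 and 4.03 CPM. The shares among all genes were computed for used wells only, so these counts over all wells have no background and cannot be read as particular to the members. Macrophage markers had medians of 0 and 1.49 CPM (ranges 0 to 89.9 and 0 to 177) and endothelial markers of 0.486 and 1.79 CPM (ranges 0 to 2041 and 0 to 8855). Of the 5 macrophage markers, *Csf1r* was detected in 1 cell, *Ptprc* in 4, *C1qa* in 7 and *C1qb* and *Tyrobp* in 8 each. Of the 5 endothelial markers, *Kdr* was detected in 2 cells, *Plvap* in 6, *Cdh5* in 8, *Emcn* in 10 and *Pecam1* in 15. The hormone gene *Fshb* was detected in 2. The part of these differences in the levels of the members was not tested.

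Other genes of the chaperone system were taken from 7 lists with 41 genes, of which 40 were in the table. Of these, 29 were detected in at least 50% of the cells and 18 in at least 90%. Over all 47069 gene rows the shares were 12.3% and 3.59%. Those rows were not matched to the listed genes in level, so the counts cannot be read as particular to chaperones. The cytosolic chaperonin, which folds actin and tubulin, was the most widely found of the 7 lists. It had 8 of 8 subunits in at least 50% of the cells and 7 in 90%, led by *Cct7* (median 305 CPM) and *Cct3* (210 CPM). *Hsf1* and *Hsf2*, the factors that act on the heat shock element, were detected in 13 and 7 of 46 cells, while *Hsbp1*, whose protein binds HSF1, was detected in 46 at a median of 390 CPM.

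In the list of other Hsp70 and Hsp110 genes, the mitochondrial Hsp70 *Hspa9* was found in 46 cells (median 115 CPM). *Hspa4*, of the Hsp110 family, was found in 36 (8.44 CPM). The J-domain genes were led by *Dnajc3* (141 CPM, 45 cells), which acts in the endoplasmic reticulum, and *Dnajb6* (31.1 CPM, 43 cells). Hsp90 co-chaperones were led by the immunophilin *Fkbp4* (159 CPM, 45 cells) and the adaptor *Stip1* (49.2 CPM, 44 cells). Hsp70 co-chaperones were led by the ubiquitin ligase *Stub1* (55.7 CPM, 43 cells) and *Bag1* (21.1 CPM, 34 cells). The stress-inducible *Bag3* was detected in 22 cells with a median of 0.792 CPM. Small heat shock proteins were uneven: *Cryab* was in all 46 cells at a median of 122 CPM, *Hspb8* in 23, and *Hspb2* in 0 of 46, for which the exact interval reaches 7.71% and the rule of 3 counts of the total gives up to 6.52%. *Cryab* was highest, at 3934 CPM, in E1, the well that was also highest for *Hspb1*. House-keeping genes gave a scale for these levels, with *Eef1a1* at a median of 1565 CPM and *Actb* at 1005 CPM. The median rho of a chaperone list with the inducible sum lay between 0.07 and 0.19, next to 0.13 over the 5051 genes.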

How the data were processed

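Libraries of single cells from 1 kind of pituitary culture were analysed. The authors deposited estimated counts, unscaled, with genes and spike-ins in rows and wells in columns. According to the submitters' processing notes, STAR 2.5.1b, featureCounts 1.5.0-p1 and mm10 were used. For the single-cell table, the annotation release, the strand setting and the handling of multi-mapping reads are not given in the sources used here. Of values above 0, 33.5% were not whole (tolerance 1e-09), so some reads had been divided between rows. Without molecular identifiers, reads are not independent molecules.

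Symbols (46488 of 47069 rows), exon lengths and transcripts came from GENCODE M21, and promoters from RefSeq. CPM used gene rows without the 92 spike-ins; TPM used union exon lengths; logs are log2(value + 1). Wells under 100000 gene counts were left out (10 of 56). Shared sequence was counted in 50-base windows of transcripts. The inducible and constitutive sums, like all 10 members and the lists, were chosen with earlier results of these data known. In each list the 2 genes with the highest median CPM and those detected in under 10% of cells were to be named, with the 5 genes closest to the inducible sum and the wells with the highest or lowest value of a member; other wells and genes were named after their values were seen. No doublet caller was run on so few cells. There was 1 sample, so no test was run. The code was tested on simulated data. Alternatives changed the detection limit, scale, pseudocount, depth, wells, correlation and gene copies. Python 3.11.15 with numpy 2.4.6, pandas 2.3.3, scipy 1.17.1 and matplotlib 3.10.9 was used.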

Additional observations from a re-analysis of the deposited data

Results flagged for a closer look

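The 10 wells under 100000 gene counts, left out above, all lay in plate columns 4 to 6 and 10 to 12 and still held reads of 8 members above 3 reads, the limit that a count of 0 allows. Over that limit were *Hspa8* in 9 wells, *Hsp90aa1* in 8, *Hsp90ab1* in 8, *Dnajb1* in 3, *Hspe1* in 3, *Hsph1* in 3, *Hspb1* in 0, *Hspd1* in 0, *Hspa1b* in 2 and *Hspa1a* in 1. The 1 well with *Hspa1a*, B5, had 378 reads of it among 26952 gene counts, or 14028 CPM, above the 3353 CPM of D2. B5 also had 7683 CPM of *Hspa1b* and 12590 CPM of *Hspe1* from 339 reads, while *Hspa8* was at 156 CPM, *Hspd1* at 0 CPM and *Dnajb1* at 37.1 CPM. E6 was the other well with *Hspa1b*, at 1178 CPM. The medians over these wells, 519 CPM for *Hspa8* and 339 CPM for *Hsp90aa1*, lie beside 514 and 331 CPM in the 46 deeper wells. ERCC spike-ins took 68.9% of the counts of B5.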

How the results depend on the processing

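Changes were read against the SD over cells for medians and log2 ratios, the exact interval for shares, 1.5 times for counts, 0.15 (1 over the root of the number of cells less 1) for a single rho, and the SD over pairs for the median rho. The SD over cells is a wide limit for a median: the median Hsp70 log2 ratio ran from -5.30 to -2.33 within it. Of 141 recomputed main values, 126 stayed within these limits. Those that did not follow. Members in at least 90% of cells numbered 3 instead of 5 at a detection limit of 10 CPM and also 3 after thinning to 100000 reads, where 1 read is 10 CPM. Cells with the inducible Hsp70 sum above *Hspa8* were 0% of the used wells within plate columns 4 to 6 and 10 to 12, where the left-out wells B5 and E6 had it above. Cells with *Hspe1* above *Hspd1* were 58.7% in CPM. The rho of the inducible sum with hormone load was -0.036 without hormone counts and -0.38 within columns 1 to 3 and 7 to 9. With gene counts it was 0.0046 as Pearson r and reversed to -0.019 over all 56 wells. The rho of the constitutive sum with hormone load was -0.11 without hormone counts, -0.076 within columns 1 to 3 and 7 to 9 and -0.65 within the others; with gene counts it was 0.060 and 0.52 within the sets; and with ERCC share it was -0.047 as Pearson r and -0.48 within columns 4 to 6 and 10 to 12. The cause was not tested. The median rho of the 45 pairs stayed between 0.18 and 0.24 in 12 alternatives. The rho of *Hspa1a* and *Hspa1b* was 0.57 after thinning, and that of *Hspa8* and *Hsp90ab1* 0.37 as Pearson r. Leaving out C11 moved none of the recomputed values past its limit, and leaving out A3, D2 and E1 together, chosen after the data were seen and run for the correlations, moved no rho past it.

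No paired analysis was possible because the cells form 1 group with nothing to pair. Depth limits the low members: 1 read is up to 8.99 CPM in a used well, so a 0 for *Hspb1* or *Dnajb1* in a shallow well does not show absence. Depth and hormone load both differ between the sets of plate columns, although over the 46 cells they had a rho of only -0.07.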
